A study of Mus musculus with 9 samples.

Results

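Colonic mucosa of transgenic mice that carry the human gastrin gene (hGas in the labels, hGAS here) was compared with that of wild-type mice (WT), on 3 arrays against 3 of the 9 arrays in the series. Arrays were assigned by their titles and genotype labels alone. All mice were male C57BL/6 animals of 6 weeks, and the remaining 3 arrays came from mice without a gastrin gene (GasKO), which also set the estimate of spread. The mucosa was lifted off by a PBS injection beneath it, per the labels' protocols. The labels name neither the promoter of the transgene nor the organ that expresses it, and they do not say whether the 3 arrays of a group came from separate mice, so the spread behind each p-value is that between these arrays, which may be technical.

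Progastrin is the precursor that the gastrin gene encodes. In the stomach, prohormone convertases and an amidating enzyme cut it to amidated gastrin, which acts on the cholecystokinin B receptor (Cckbr) and drives acid secretion. Unprocessed progastrin is studied in the colon as a growth factor, and annexin A2 (Anxa2) is a known binding partner. The series title places the work in that field, with proliferation of the colon as the question.

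The system that makes and reads gastrin showed no called difference. The mouse probe set for Gast lay at background on all 6 arrays, between 1.93 and 1.97 on the log2 scale of the deposited values, and it does not measure the human transgene. Cckbr, the receptor, was also at background, between 1.76 and 1.79. Of 10 genes of this system with a probe set, 3 passed the filter of log2 4 on at least 3 arrays, and 0 of these were called (0 also at an unadjusted p under 0.05, limma, a level that 14.2% of all genes reached). Anxa2 was at 13.19, 13.36 and 13.24 in WT (replicates 1, 2 and 3, the order used throughout) and at 13.29, 13.16 and 13.29 in hGAS. Cpe, a carboxypeptidase of prohormone processing, differed by -0.08 ± 0.07 (log2 difference hGAS minus WT ± SE; adjusted p = 0.69, limma), and Furin, a convertase, by 0.05 ± 0.10 (adjusted p = 0.87). The arrays therefore hold no readout of the transgene itself, and the group rests on its label.

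Epithelial genes marked the tissue on every array. Mean WT levels were 13.67 for Epcam, 14.15 for Krt8, 14.24 for Lgals4, 11.81 for Cdh17 and 12.97 for Slc26a3, the chloride exchanger of colonocytes. Smooth muscle genes were high as well, with Myh11 at 13.22 and Actg2 at 13.49 in WT. The small-intestinal genes Apoa1 (2.43) and Lct (2.42) were at background. The mean level over 17 smooth muscle genes was 12.15 to 12.34 on WT and 12.11 to 12.25 on hGAS arrays, and over 15 epithelial genes 12.32 to 12.42 and 12.33 to 12.37. In this bulk tissue, fewer cells of a type and less RNA per cell cannot be told apart.

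Of 11273 genes tested, 131 differed between hGAS and WT at an adjusted p under 0.05, which is 1.16% of them. Of these, 72 were higher in hGAS (0.639%) and 59 lower (0.523%). A change of at least 2-fold was reached by 27 of the higher and 13 of the lower genes. In all 131 the 3 hGAS arrays lay entirely above or below the 3 WT arrays, an order found in 17.7% of all genes tested. The median log2 difference over all genes was 0.008, and the median size of the difference among called genes was 0.64. Where a called gene had further probe sets above background, 77 of 78 of these had the same sign. Calls depended on single arrays: 23 of the 131 (12 higher, 11 lower) remained called whichever of the 9 arrays was left out, and 108 lost their call at least once, so below each gene is given with the number of these 9 fits that kept its call.

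**Figure D1:**
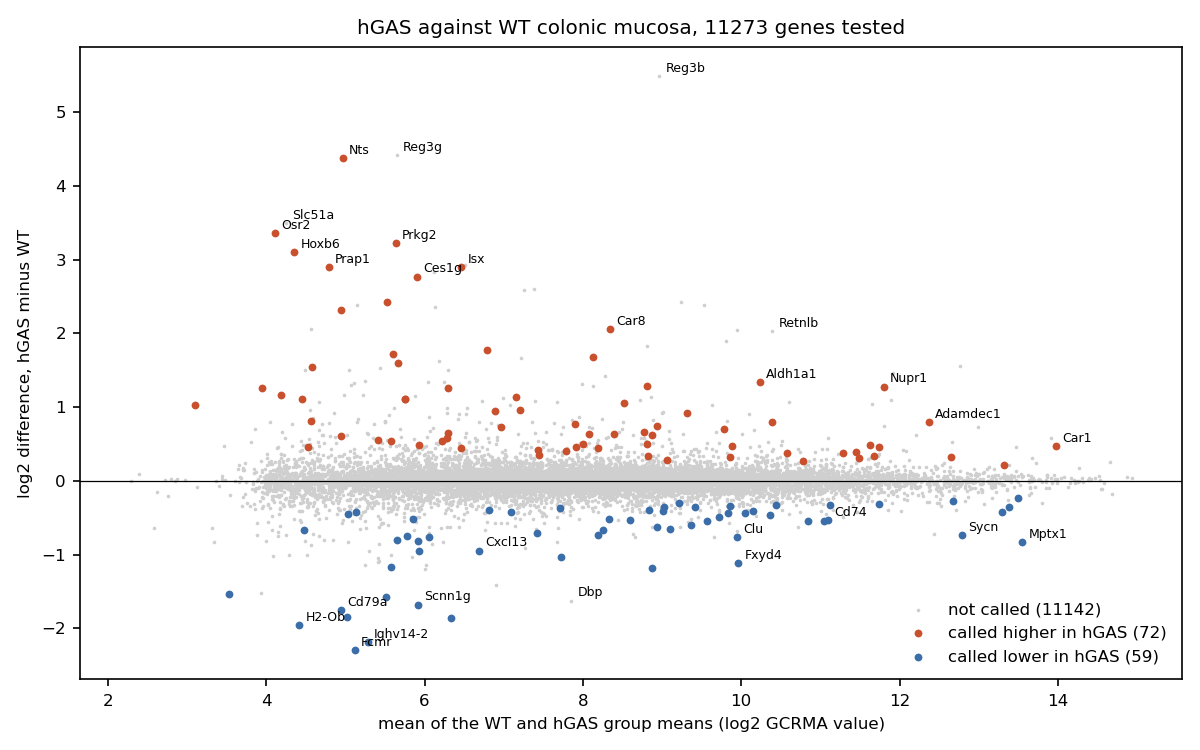
Log2 difference (hGAS minus WT) of each of the 11273 genes tested against its mean level (mean of the WT and hGAS group means, log2 GCRMA value), with 72 genes called higher in orange, 59 called lower in blue and the rest in grey. The largest rises start from low levels, and Reg3b and Reg3g, which were not called, have differences as large as that of Nts.

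The hGAS mucosa held more mRNA of some genes that mark the proximal colon or the small intestine, among them Nts, Osr2 and Hoxb6, which were among the largest rises. Nts encodes neurotensin, a peptide hormone of enteroendocrine cells of the ileum. It was at background in WT (2.79, 2.80 and 2.75) and at 7.19, 8.02 and 6.25 in hGAS, a log2 difference of 4.37 ± 0.34 (adjusted p = 0.00149, limma; kept in 9 of 9 fits). Since WT lay at background, the fold of such a gene depends on the background level, and Nts passed the filter through the hGAS arrays alone. The filter was set once on all 9 arrays, so such a gene stayed in the fits that left out 1 hGAS array. Against GasKO, where Nts was also at background, hGAS was higher by 4.43 (adjusted p = 2.63e-05). Sct, which encodes secretin, a hormone of the upper small intestine, was at 5.09, 5.09 and 4.43 in WT and at 6.12, 6.96 and 6.33 in hGAS, a difference of 1.60 ± 0.23 (adjusted p = 0.0148, kept in 9 of 9). These were the only called genes among 20 tested enteroendocrine genes, whose median difference was 0.05, where 0.639% of all genes were called higher. Chga, a general marker of these cells, differed by 0.14 and Chgb by 0.05. Insl5 and Pyy, hormones of the distal bowel, differed by -0.45 and -0.30, and neither was called. Ppy, pancreatic polypeptide, which was on no list, fell from 6.50, 6.27 and 6.20 to 5.36, 5.45 and 5.71 (-0.82 ± 0.13, adjusted p = 0.0212, kept in 6 of 9; lost without WT replicate 1, hGAS replicate 1 or hGAS replicate 2).

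Hox genes mark position along the gut. Hoxb6, which passed the filter through the hGAS arrays alone, was the only called gene of 16 tested (0.639% of all genes were called higher). Hoxb6 was at 2.61, 3.30 and 2.51 in WT, near background, and at 5.84, 6.77 and 5.10 in hGAS (3.10 ± 0.36, adjusted p = 0.00598, kept in 9 of 9). Its cluster neighbour Hoxb3 was at 6.05, 5.88 and 6.08 in WT and at 6.56, 7.54 and 6.40 in hGAS, with no overlap and a difference of 0.83 (adjusted p = 0.15). Genes at the posterior end of the clusters lay the other way without being called. Hoxb13, a gene of the distal colon, differed by -0.39, Hoxd13 by -0.55, Hoxd10 by -0.52 and Hoxd11 by -0.38. The median over the 16 Hox genes was -0.02. Osr2, a zinc finger transcription factor of the proximal colon list, was at 2.37, 2.42 and 2.49 in WT and at 5.58, 7.45 and 4.34 in hGAS (3.36 ± 0.60, adjusted p = 0.0334). It kept its call in 2 of 9 fits, and without hGAS replicate 2 the difference was 2.53. Its paralogue Osr1 fell from 6.30, 6.20 and 6.73 to 5.37, 5.31 and 5.69 (-0.96 ± 0.16, adjusted p = 0.0278, kept in 3 of 9).

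Of the proximal colon list, 18 of 22 genes were tested and 5 were called, all higher: Osr2, Hoxb6, Ces1g, Car8 and Car1. Over all genes 0.639% were called higher. Osr2 and Hoxb6 passed the filter only through the hGAS arrays and so had to differ, which leaves 3 calls that could have gone either way. The median difference of the tested genes was 0.50 against 0.008 over all genes, and 10 of the 18 were above WT with no overlap, against 9.35% of all genes, and 1 was below. Osr2 and Hoxb6 count in this median and among the 10, so both values rest in part on genes that had to differ. Car8 encodes a carbonic anhydrase-related protein. Its levels were 7.57, 7.98 and 6.37 in WT and 9.45, 9.86 and 8.80 in hGAS (2.06 ± 0.38, adjusted p = 0.039, kept in 3 of 9). Car1, an abundant carbonic anhydrase of proximal colonocytes, rose from 13.69, 13.87 and 13.65 to 14.15, 14.32 and 14.15 (0.47 ± 0.07, adjusted p = 0.016, kept in 7 of 9; lost without WT replicate 1 or hGAS replicate 1). Retnlb, a goblet cell peptide on the same list, had no stable WT level: it was at 11.85, 10.63 and 5.66 in WT and at 11.51, 11.69 and 11.02 in hGAS. Abcg5, a sterol transporter subunit, lay below WT at 5.14, 6.23 and 5.58 against 6.83, 6.68 and 8.22, and was not called (-1.59, adjusted p = 0.091).

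Both ends of this pattern leaned on single arrays. Among the 27 genes that rose at least 2-fold, hGAS replicate 2 was the highest hGAS array in 22 and hGAS replicate 3 the lowest in 20, and WT replicate 3 was the lowest WT array in 20. Mean shifts of the 18 proximal genes from the WT mean were 0.28, 0.13 and -0.41 on the WT arrays, 0.69, 1.24 and 0.55 on the hGAS arrays and 0.45, 0.34 and 0.29 on the GasKO arrays. The list's median was 0.35 without WT replicate 3 and 0.59 without WT replicate 2, and between 1 and 6 of its genes were called when 1 array was left out. The labels give no position along the colon for any sample, and the part of sampling position in these results was not tested.

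**Figure D2:**
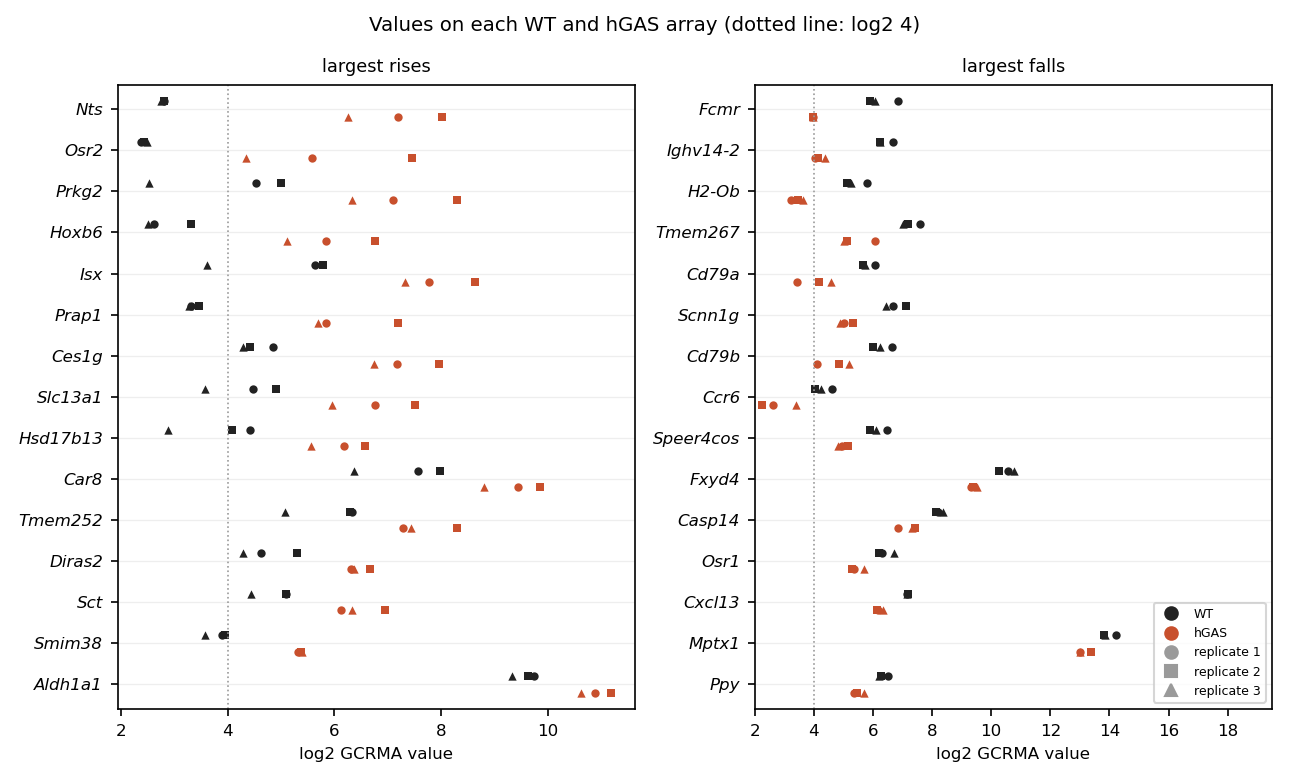
Log2 GCRMA value on each of the 3 WT and 3 hGAS arrays for the 15 largest rises (left) and the 15 largest falls (right) among named called genes, with marker shape giving the replicate and the dotted line at log2 4. WT and hGAS do not overlap in any of the 30 genes, and the square of hGAS replicate 2 lies farthest right for most rises.

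Genes of absorptive enterocytes gave a similar but less even picture. Of 22 tested genes on the small-intestinal enterocyte list, Isx and Prap1 rose, Slc15a1 fell and 19 were not called, and the median difference was 0.26. Over all genes 0.639% were called higher and 0.523% lower. Isx encodes an intestinal homeobox factor that represses vitamin A uptake genes. It was at 5.64, 5.79 and 3.62 in WT and 7.77, 8.64 and 7.33 in hGAS (2.90 ± 0.57, adjusted p = 0.0488), and no fit without 1 array kept the call (largest adjusted p = 0.145). Prap1, a secreted proline-rich acidic protein of the small intestine, rose from 3.31, 3.45 and 3.26 to 5.85, 7.19 and 5.69 (2.90 ± 0.32, adjusted p = 0.00456, kept in 9 of 9), and it passed the filter through the hGAS arrays alone. Slc15a1, the peptide transporter PEPT1, fell from 8.48, 8.53 and 8.76 to 7.99, 8.17 and 8.04 (-0.52 ± 0.09, adjusted p = 0.0278, kept in 3 of 9), and in GasKO its level was close to that of hGAS (hGAS minus GasKO -0.04, adjusted p = 0.79).

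The largest difference among all 11273 genes was in a gene that was not called. Reg3b, an antimicrobial lectin of the small intestine, was at 6.00, 9.63 and 3.01 in WT and at 12.31, 12.85 and 9.96 in hGAS, a difference of 5.49 ± 1.37 (adjusted p = 0.095). Reg3g, its close relative that binds Gram-positive bacteria, was at 2.54, 5.43 and 2.33 in WT and at 8.66, 9.05 and 5.86 in hGAS (4.42 ± 0.93, adjusted p = 0.060). In both genes the groups did not overlap, WT replicate 2 was the highest WT array and hGAS replicate 3 the lowest hGAS array. Without WT replicate 2 both passed the threshold, Reg3b at 7.20 (adjusted p = 0.023) and Reg3g at 5.42 (adjusted p = 0.029). Slc51a, a subunit of the basolateral bile acid exporter, was at 2.52, 2.52 and 2.47 in WT and at 5.45, 8.22 and 4.32 in hGAS (3.49 ± 0.76, adjusted p = 0.070). Its adjusted p passed the threshold without hGAS replicate 2, at a difference of 2.38 (adjusted p = 0.013), and without hGAS replicate 3. On no WT array did Slc51a reach the filter level of log2 4, while it did on all 3 hGAS arrays. The filter was not applied again in these fits, so they carry the limit given for Nts and do not count as support. Alpi, intestinal alkaline phosphatase, was at 5.38, 5.60 and 3.11 against 7.38, 7.84 and 7.37 (2.83, adjusted p = 0.056). Without WT replicate 3, the low array, the difference in Alpi was 2.04 and the adjusted p 0.032. Nr1h4, the bile acid receptor FXR, and Cdx2, the caudal homeobox factor of intestinal identity, differed by 0.83 and 0.93 with adjusted p of 0.060 and 0.076, each with all hGAS arrays above WT.

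Single members of enzyme families of lipid, steroid and retinoid handling rose, and most members were not called; over all genes 0.639% were called higher. Ces1g and Ces1f, carboxylesterases that hydrolyse lipid esters, were the called genes among 10 of that family. Ces1g was at 4.84, 4.42 and 4.29 in WT and at 7.17, 7.96 and 6.74 in hGAS (2.77 ± 0.36, adjusted p = 0.0101, kept in 8 of 9; lost without hGAS replicate 1 at an adjusted p of 0.0508). Ces1f rose by 1.29 ± 0.21 (adjusted p = 0.0251, kept in 6 of 9), while Ces1e (0.89) and Ces1d (0.64) lay above WT on every array without a call. Members of this cluster are near copies, and a probe set may read more than 1 of them. The retinoid genes called were Isx, Aldh1a1 and Lrat, 3 of 13 tested, of which Lrat passed the filter only through the hGAS arrays. Aldh1a1, a retinaldehyde dehydrogenase that makes retinoic acid, rose from 9.74, 9.64 and 9.33 to 10.90, 11.20 and 10.63 (1.34 ± 0.15, adjusted p = 0.0052, kept in 9 of 9). Lrat, which esterifies retinol for storage, rose from 3.78, 3.30 and 2.89, near background, to 4.46, 4.70 and 4.55 (1.25 ± 0.19, adjusted p = 0.0212, kept in 5 of 9).

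Hydroxysteroid dehydrogenases added Hsd17b13 and Hsd3b2, 2 of 15 tested. For this and the next list, 0.639% of all genes were called higher. Hsd17b13, a protein of lipid droplets, was at 4.41, 4.08 and 2.87 in WT and at 6.18, 6.57 and 5.55 in hGAS (2.31 ± 0.37, adjusted p = 0.0231, kept in 5 of 9). Hsd3b2, of the family that forms 3-keto steroids, rose from 5.99, 5.48 and 5.52 to 7.07, 6.95 and 6.77 (1.26 ± 0.14, adjusted p = 0.0052, kept in 9 of 9), and Hsd3b3, a near copy, lay at 1.03 above WT (adjusted p = 0.059). The GasKO arrays set these genes apart: Hsd17b13 was lower in hGAS than in GasKO by 2.98 (hGAS minus GasKO -2.98, adjusted p = 0.00053), and Hsd3b2 was higher in hGAS than in GasKO by 4.40 (adjusted p = 8.78e-08). Of 26 genes on the cytochrome P450 and conjugation list Gsta4 and Aldh1a1 were called. Gsta4 rose by 0.66 ± 0.11, and Ugdh, which is on no list and was chosen after its values were seen, by 0.48 ± 0.08. Gsta4, a glutathione transferase of lipid peroxidation products, kept its call in 3 of 9 fits, and Ugdh, which makes UDP-glucuronic acid, in 2 of 9. Ugt2b5, a glucuronosyltransferase, and Cyp2c65 differed by 2.93 and 2.38 with no overlap but had WT values spread over more than log2 2 (5.87, 5.89 and 3.38 for Ugt2b5), and neither was called. Prkg2, a cGMP-dependent kinase of the epithelium, was at 4.53, 5.01 and 2.53 in WT and at 7.11, 8.31 and 6.32 in hGAS (3.22 ± 0.63, adjusted p = 0.0486, kept in 2 of 9). Guca2a and Guca2b, guanylin and uroguanylin, which raise cGMP in that epithelium, lay above WT on every array by 0.46 and 0.44 without a call. Slc13a1, a sodium-sulphate cotransporter, rose from 4.46, 4.90 and 3.57 to 6.77, 7.52 and 5.95 (2.43 ± 0.41, adjusted p = 0.0287, kept in 2 of 9).

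Among genes of the distal colon, 2 of sodium absorption and a carbonic anhydrase fell. Scnn1g encodes the gamma subunit of the epithelial sodium channel, which aldosterone controls in the distal colon. It fell from 6.68, 7.12 and 6.46 to 5.04, 5.32 and 4.88 (-1.68 ± 0.18, adjusted p = 0.00366, kept in 9 of 9). Fxyd4, a regulator of the sodium pump also called CHIF, fell from 10.55, 10.25 and 10.77 to 9.30, 9.38 and 9.53 (-1.12 ± 0.17, adjusted p = 0.0176, kept in 6 of 9; lost without WT replicate 1, hGAS replicate 1 or hGAS replicate 2). Car4, a membrane carbonic anhydrase of surface colonocytes, fell by a smaller 0.36 (-0.36 ± 0.05, adjusted p = 0.0162, kept in 7 of 9; lost without hGAS replicate 1 or 2). The other sodium channel subunits were not called, with Scnn1b at -0.64 (adjusted p = 0.079) and Scnn1a at -0.34 (adjusted p = 0.14), both below WT on every array. The 3 falls were the only calls among 15 tested distal genes (0.523% of all genes were called lower), whose median was -0.34. Of the 15, 8 lay below WT with no overlap, against 8.36% of all genes. Levels in hGAS were not separable from those in GasKO for Scnn1g (hGAS minus GasKO -0.12 ± 0.18, adjusted p = 0.69) or for Car4 (-0.05, adjusted p = 0.58). Fxyd4 lay lower still in GasKO, without passing the threshold (hGAS minus GasKO 0.52 ± 0.17, adjusted p = 0.065, limma). Tsc22d3 (GILZ), a target of corticosteroids that raises sodium transport, went the other way, from 9.21, 9.55 and 9.53 to 10.10, 10.42 and 9.88 (0.71 ± 0.14, adjusted p = 0.0466, kept in 1 of 9). Sgk1, the aldosterone-induced kinase, lay at 0.41 above WT and was not called (adjusted p = 0.21). The mean shift of the 15 distal genes was -0.32, -0.44 and -0.22 on hGAS arrays against -0.06 to 0.06 on WT arrays. On GasKO arrays it was -0.33, -0.23 and -0.25, so the lower level of this list was not particular to hGAS.

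Most genes of goblet cells and colonocytes were not called, where 0.639% of all genes were called higher and 0.523% lower. Of 26 goblet cell genes only Best2, a bicarbonate channel of colonic goblet cells, was called (-0.63 ± 0.11, adjusted p = 0.0335, kept in 3 of 9), and the median was 0.03. Muc2, the gel-forming mucin, differed by 0.26, Tff3 by -0.11 and Zg16 by 0.04. Of 25 colonocyte genes Car1 rose and Car4 fell, with a median of 0.07. An unadjusted p under 0.05 (limma) was reached by 11 goblet cell genes (42.3%) and 13 colonocyte genes (52.0%), against 14.2% of all genes. Without overlap, 6 goblet cell genes lay above WT and 3 below. For colonocyte genes these counts were 8 and 4, against 9.35% and 8.36% of all genes.

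**Figure D3:**
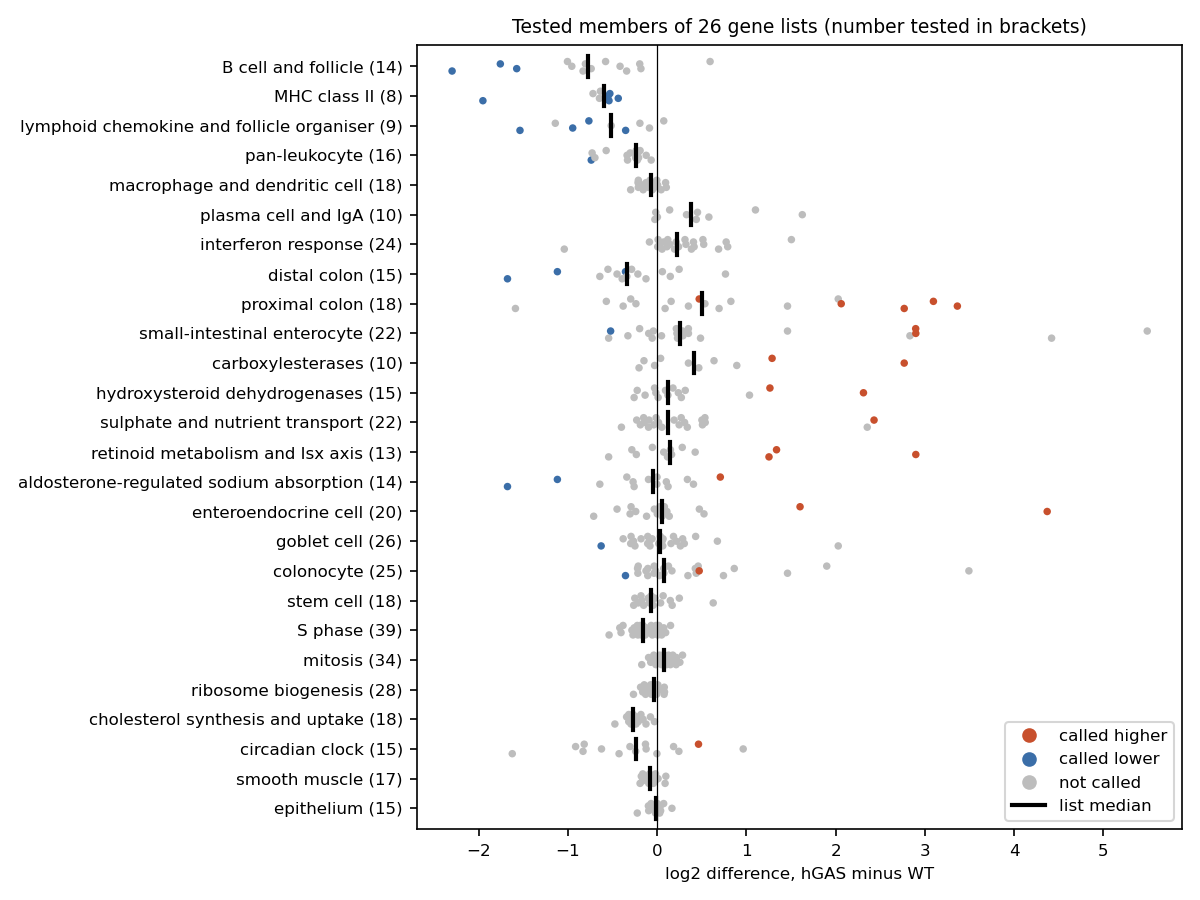
Log2 difference (hGAS minus WT) of every tested member of 26 of the 58 gene lists, with genes called higher in orange, called lower in blue, the others in grey, and a black bar at the list's median. B cell, MHC class II and follicle lists lie left of 0 (medians -0.77, -0.59 and -0.52), the proximal colon list lies to the right (0.50), and the S phase, mitosis and ribosome lists cluster within 0.2 of 0 at their medians.

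Genes of B lymphocytes were among the largest falls. Fcmr, the receptor for IgM, fell from 6.84, 5.89 and 6.06 to 3.98, 3.95 and 3.96 (-2.30 ± 0.23, adjusted p = 0.00256, kept in 9 of 9), which is near background. Cd79a and Cd79b, the signalling pair of the B cell receptor, fell from 6.08, 5.66 and 5.72 to 3.43, 4.17 and 4.59 and from 6.66, 5.99 and 6.23 to 4.10, 4.85 and 5.21. Their differences were -1.76 ± 0.30 (adjusted p = 0.0292, kept in 2 of 9) and -1.58 ± 0.30 (adjusted p = 0.042, kept in 1 of 9). The immunoglobulin segment Ighv14-2, which has near copies, fell from 6.67, 6.22 and 6.22 to 4.05, 4.14 and 4.37 (-2.18 ± 0.22, adjusted p = 0.00256, kept in 9 of 9). The other called segment, Igkv6-20, went the other way near background in both groups, tested only because GasKO arrays passed the filter, from 2.60, 2.61 and 2.55 to 3.90, 3.29 and 3.66 (1.03 ± 0.15, adjusted p = 0.0148, kept in 8 of 9; lost without hGAS replicate 1). Of 21 B cell genes listed, 14 were tested and 3 were called lower, where 0.523% of all genes were. Of the 14, 11 lay below WT with no overlap, against 8.36% of all genes. The list's median was -0.77, and -0.67 to -0.89 when 1 array was left out. Ms4a1 (CD20) was at 6.18, 5.64 and 5.52 against 4.73, 4.50 and 5.24 and was not called (-0.96, adjusted p = 0.14), and Btla and Cr2 differed by -1.01 and -0.83 without a call. The mean level over these 14 genes was 5.25 to 5.65 on WT arrays, 4.46 to 4.82 on hGAS arrays and 6.13 to 6.78 on GasKO arrays, so the 3 genotypes did not overlap. Against GasKO, hGAS was lower by 2.93 for Cd79a (hGAS minus GasKO -2.93, adjusted p = 0.000174).

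MHC class II genes fell with them. These genes present antigen on B cells, dendritic cells and macrophages, and their promoters share an X box, read by the RFX complex, and a Y box, read by NF-Y, with CIITA as the common coactivator. The letters GCAAC of the X box followed after 25 to 28 bases by ATTGG, the Y box, on either strand, were searched in RefSeq promoter windows of build GRCm38.p6, from 250 bases before to 50 after a gene's start. The pair was found in 66 of 32851 windows (0.201%), while GCAAC alone was in 35.2% and ATTGG alone in 37.4%. Of 8 class II genes with a window, 5 held the pair (H2-Aa, H2-Eb1, H2-Eb2, H2-Oa and H2-Ob), and H2-DMa, H2-DMb1 and H2-DMb2 did not. The 70 bases from 100 to 31 before the start are shown for 3 genes that fell and, last, for 1 that was not called, with both motifs in capitals.
H2-Ob, chr17:34238805-34238874, plus strand: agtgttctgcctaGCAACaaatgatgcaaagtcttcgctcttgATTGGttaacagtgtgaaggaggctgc
H2-Aa, chr17:34287854-34287923, minus strand: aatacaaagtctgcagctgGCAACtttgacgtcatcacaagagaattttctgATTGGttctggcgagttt
H2-Eb1, chr17:34305767-34305836, plus strand: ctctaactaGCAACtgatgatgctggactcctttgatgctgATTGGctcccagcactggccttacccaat
H2-Oa, chr17:34092279-34092348, plus strand: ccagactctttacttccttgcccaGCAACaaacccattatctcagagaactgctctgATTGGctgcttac
A match describes the letters and does not show that a factor was bound.

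Of 11 class II genes listed, 8 were tested, 5 were called lower (0.523% of all genes) and all 8 lay below WT with no overlap (8.36% of all genes), with a median of -0.59. H2-Ob, a chain of the peptide-loading modulator H2-O, whose promoter stands first in the sequences, fell from 5.79, 5.12 and 5.27 to 3.22, 3.46 and 3.64 (-1.95 ± 0.27, adjusted p = 0.0148, kept in 8 of 9; lost without hGAS replicate 1). H2-Oa, its partner with the same motif pair, was at 3.16, 2.36 and 3.16 against 2.19, 2.30 and 2.28, near background in both groups, and was tested only because GasKO arrays passed the filter. The classical chains changed less on the log2 scale, at far higher levels. Cd74, the invariant chain, fell from 11.38, 11.42 and 11.30 to 10.86, 10.84 and 10.80 (-0.53 ± 0.05, adjusted p = 0.00155, kept in 9 of 9). H2-Eb1 fell from 9.82, 9.88 and 9.79 to 9.39, 9.22 and 9.27 (-0.54 ± 0.06, adjusted p = 0.00342, kept in 9 of 9). H2-Aa and H2-Ab1 fell by 0.55 and 0.44 (-0.55 ± 0.10 and -0.44 ± 0.07) and kept their calls in 1 and 2 of 9 fits. H2-DMa and H2-DMb2, the peptide exchange factor, differed by -0.72 and -0.65 without a call (adjusted p = 0.056 and 0.091). The spread within a group was at most 0.09 (SD, n = 3) for Cd74 and H2-Eb1, and both were lower in hGAS than in GasKO, by 1.16 and 1.32 (adjusted p = 3.68e-07 and 5.77e-07). Of class I and immunoproteasome genes 0 of 11 were called, and 0 reached an unadjusted p under 0.05 (limma, against 14.2% of all genes), with a median of 0.00.

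**Figure D4:**
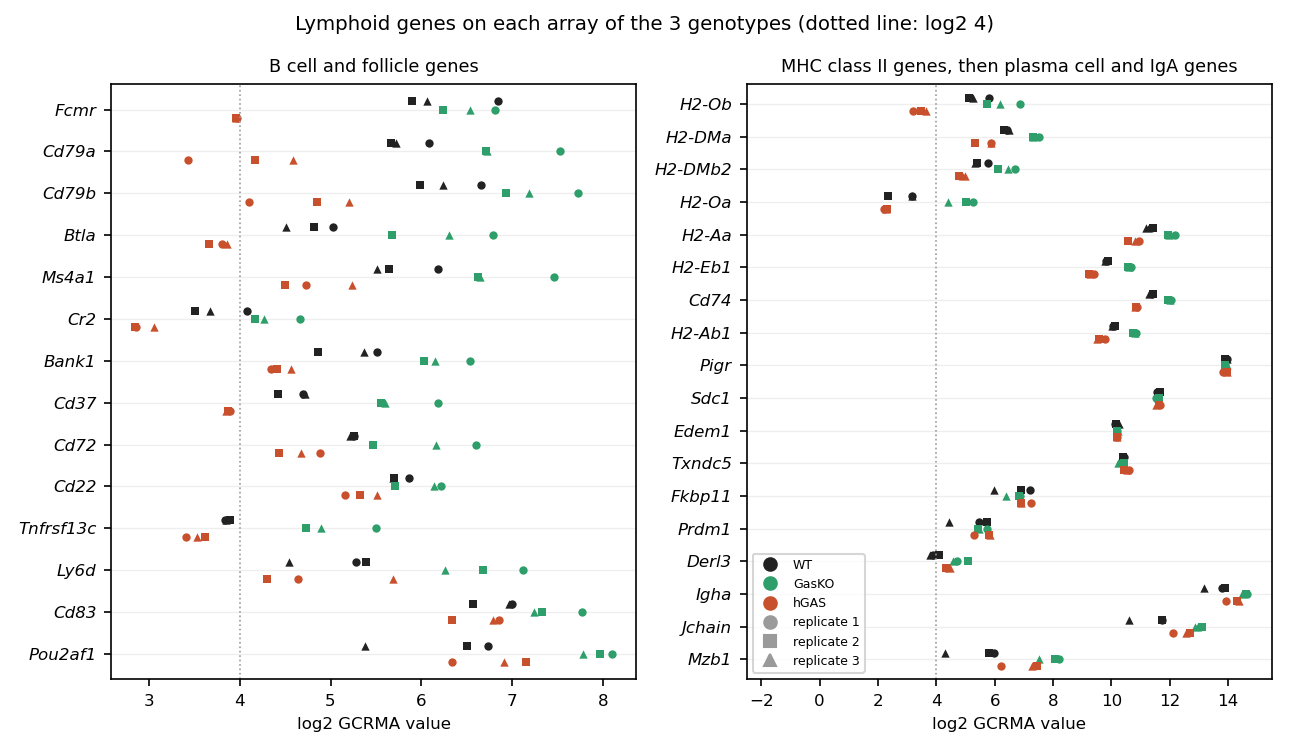
Log2 GCRMA value on each array for 14 B cell and follicle genes (left) and for 8 MHC class II genes followed by 10 plasma cell and IgA genes (right), with WT in black, GasKO in green and hGAS in orange, shape giving the replicate and the dotted line at log2 4. For most B cell genes and all 8 class II genes the order is hGAS, WT, GasKO from low to high, while Igha, Jchain and Mzb1 are lowest in WT replicate 3.

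Some genes that organise lymphoid follicles fell too. Cxcl13, the chemokine that draws B cells into follicles, fell from 7.15, 7.19 and 7.15 to 6.16, 6.15 and 6.34 (-0.95 ± 0.08, adjusted p = 0.00155, kept in 9 of 9). Ccr6, a chemokine receptor of B cells near the follicle epithelium, fell from 4.62, 4.03 and 4.24 to 2.62, 2.26 and 3.40, which is background (-1.54 ± 0.26, adjusted p = 0.0287, kept in 2 of 9). Its ligand Ccl20 was at 5.83, 6.38 and 5.23 against 4.25, 4.54 and 5.22 and was not called (-1.14, adjusted p = 0.12). Clu, clusterin, and Mfge8, both expressed by follicular dendritic cells among others, fell by 0.77 and 0.35 (-0.77 ± 0.07, adjusted p = 0.00155, kept in 9 of 9; -0.35 ± 0.06, adjusted p = 0.0233, kept in 5 of 9). These were 4 calls of 9 tested genes, where 0.523% of all genes were called lower. Spib, a factor of B cells and M cells, differed by -0.81 (adjusted p = 0.079). Icosl and Icam1, ligands on antigen-presenting cells, fell by 0.39 and 0.81 (-0.39 ± 0.08 and -0.81 ± 0.15; adjusted p = 0.049 and 0.039), and each lost its call in nearly every fit without 1 array (Icosl in 9, Icam1 in 8). Of 14 tested NF-kB genes, with a median of -0.11, Icam1 and Tnfaip3 (A20, an inhibitor of NF-kB signalling) were called lower and Traf1 higher. Over all genes 0.523% were called lower and 0.639% higher. Tnfaip3 differed by -0.41 ± 0.07 (adjusted p = 0.0249, limma, kept in 2 of 9). Traf1 differed by 0.61 ± 0.09 (adjusted p = 0.0148, kept in 8 of 9, lost without hGAS replicate 1). Tnfaip3 was also lower in GasKO than in WT (GasKO minus WT -0.60, adjusted p = 0.00033).

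Other leukocyte genes moved less. All 16 tested pan-leukocyte genes had a negative difference, with a median of -0.24, but only Coro1a, an actin regulator of leukocytes, was called (8.72, 8.42 and 8.52 against 7.92, 7.64 and 7.89, a difference of -0.74 ± 0.12, adjusted p = 0.0273, kept in 4 of 9). Over all genes 0.523% were called lower. Of the 16 genes, 8 lay below WT with no overlap, against 8.36% of all genes. An unadjusted p under 0.05 was reached by 7 (limma, 43.8% against 14.2% of all genes). Of 18 macrophage and dendritic cell genes, 0 were called and 2 reached an unadjusted p under 0.05 (limma, 11.1% against 14.2% of all genes), with a median of -0.08. T cell genes were at or near background: Cd3e was at 2.26 and Cd4 at 2.95 in WT, and 3 of 22 listed genes could be tested. The plasma cell and IgA list pointed the other way, with 0 of 10 genes called, 5 at an unadjusted p under 0.05 (limma) and a median of 0.38. Mzb1, a chaperone of antibody secretion, was at 5.99, 5.81 and 4.30 in WT and at 6.23, 7.46 and 7.29 in hGAS (1.63, adjusted p = 0.14), and Jchain, which joins IgA dimers, differed by 1.10 (adjusted p = 0.096). WT replicate 3 was low in both, and without it the list's median was 0.09. The lymphoid content of the sampled pieces was not recorded in the labels, and its part in these differences was not tested.

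Of 24 interferon-stimulated genes 0 were called and 3 reached an unadjusted p under 0.05 (limma, 12.5% against 14.2% of all genes), with a median of 0.23. Among the 24 differences 22 were positive and 2 negative, where 52.8% of all genes had a positive difference. Ifit1 was at 6.32, 5.93 and 4.36 against 7.15, 7.10 and 6.87 (a difference of 1.5, adjusted p = 0.20). Cxcl10, a chemokine induced by interferon gamma, lay on the opposite side at 6.03, 5.46 and 6.31 against 5.03, 4.74 and 4.91 (-1.04, adjusted p = 0.055).

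The genes of cell division, the process in the series title, showed no call by limma. Of 39 S phase genes 0 were called and 11 reached an unadjusted p under 0.05 (28.2%, against 14.2% of all genes), and their median was -0.16. Of the 39, 13 lay below WT and 0 above without overlap, against 8.36% and 9.35% of all genes. Of 34 mitosis genes 0 were called, 0 reached an unadjusted p under 0.05, the median was 0.07 and in every one the groups overlapped. Mki67, Pcna, Lgr5 and Myc, chosen after their values were seen, had log2 differences of 0.08 (95% confidence interval -0.18 to 0.35), -0.13 (-0.32 to 0.05), -0.06 (-0.60 to 0.48) and -0.05 (-0.33 to 0.24). Each interval lies below a doubling of the mRNA. The intervals reflect the spread between these arrays, which may be technical, and were not adjusted for the choice of genes. The arrays measured whole mucosa, in which crypt cells are a part. Uhrf1, a replication-linked methylation factor, differed most clearly, from 8.86, 9.09 and 9.24 to 8.62, 8.57 and 8.79 (-0.41, adjusted p = 0.090). The lists for ribosome biogenesis (0 of 28 called, median -0.04), stem cells (0 of 18, median -0.06), Wnt targets (0 of 14, median -0.05), Notch (0 of 14, median -0.08) and EGF receptors (0 of 12, median 0.00) gave no call by limma, with 1, 3, 2, 1 and 0 genes at an unadjusted p under 0.05. Prom1, a surface protein of crypt cells, differed by 0.63 (adjusted p = 0.12) and Ephb3, an ephrin receptor of the crypt base, by -0.26 (adjusted p = 0.28). Klf10, an early TGF-beta response gene, and Id4, an inhibitor of basic helix-loop-helix factors, fell by 0.34 and 0.43 (-0.34 ± 0.07 and -0.43 ± 0.08; kept in 1 and 0 of 9).

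The circadian clock runs on activators and repressors whose mRNA levels cycle over the day, in the gut as elsewhere. Cry1, a repressor of the circadian clock, rose from 7.71, 7.72 and 7.60 to 8.27, 8.09 and 8.06 (0.46 ± 0.08, adjusted p = 0.0298, kept in 2 of 9). It was the only call among 15 tested genes, where 0.639% of all genes were called higher. Nfil3, a repressor of D-box genes, was at 4.34, 3.69 and 4.17 against 5.40, 5.03 and 4.67 (0.96, adjusted p = 0.060). Dbp, a D-box activator, was at 8.36, 8.92 and 8.71 against 6.64, 8.04 and 6.44 (-1.62, adjusted p = 0.089), and its relatives Tef and Hlf differed by -0.91 and -0.82. Nr1d1 (REV-ERB alpha) differed by -0.83 and Per3 by -0.62, again with all hGAS arrays below WT. Of the 15 genes, 7 lay below and 2 above WT with no overlap, against 8.36% and 9.35% of all genes. Nr1d1, Hlf and Per3 were chosen after their values were seen. The mice lived in a 12-hour light cycle per the labels' protocols, which give no hour of tissue collection for any sample.

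**Figure D5:**
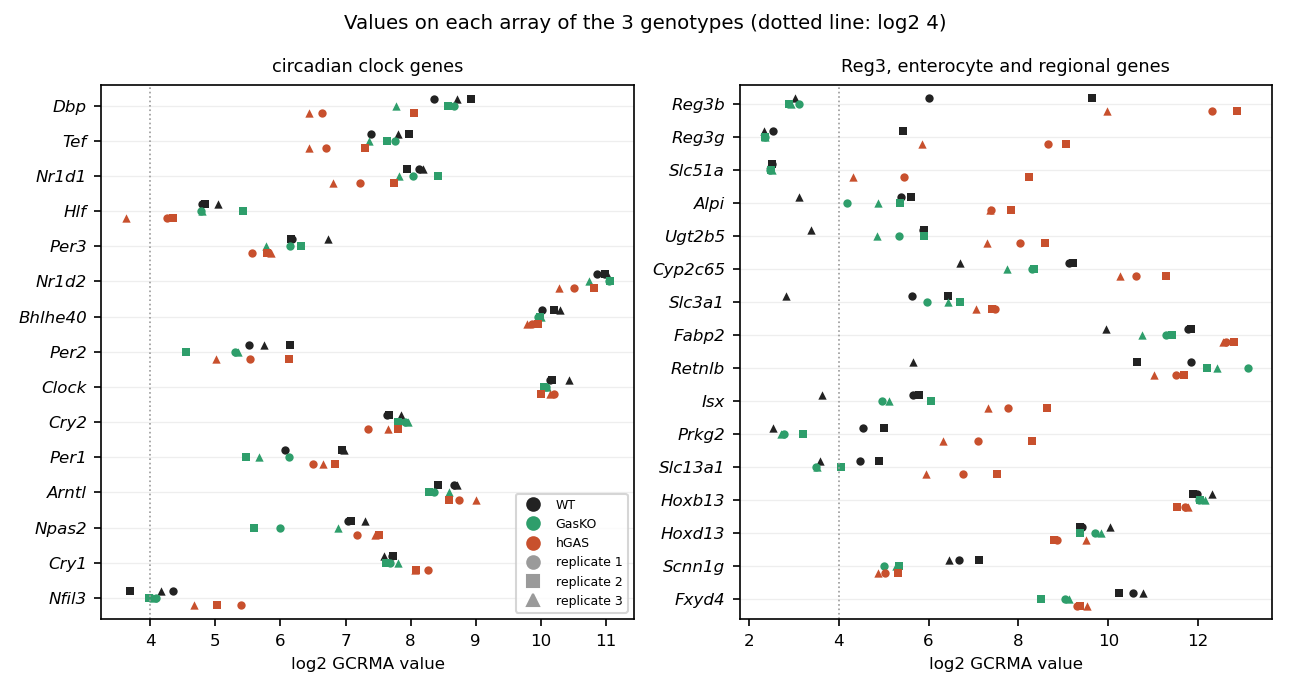
Log2 GCRMA value on each array for 15 circadian clock genes (left) and for 16 Reg3, enterocyte and regional genes (right), with WT in black, GasKO in green and hGAS in orange, shape giving the replicate and the dotted line at log2 4. Dbp, Tef, Nr1d1, Hlf and Per3 are lower and Cry1 and Nfil3 higher on all hGAS than on all WT arrays, and WT replicate 3 is the lowest WT array for Reg3b, Alpi, Ugt2b5, Slc3a1, Isx and Prkg2.

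Several abundant or unusual genes outside these groups also changed. Adamdec1, a secreted protease of the gut lamina propria, rose from 11.97, 11.94 and 12.02 to 12.72, 12.98 and 12.61 (0.79 ± 0.08, adjusted p = 0.00256), Wdfy1, an endosomal adaptor, from 7.89, 8.11 and 7.96 to 9.02, 9.06 and 9.05 (1.05 ± 0.07, adjusted p = 0.00133), and Slc39a8, a zinc and manganese importer, from 7.62, 7.55 and 7.35 to 8.28, 8.43 and 8.14 (0.77 ± 0.09, adjusted p = 0.00781). All of these kept their calls in 9 of 9 fits. Meg3 and Rian, imprinted noncoding RNAs that neighbour each other, rose by 0.80 ± 0.14 and 1.14 ± 0.21 (adjusted p = 0.0298 and 0.039; kept in 3 and 2 of 9), and both were low in WT replicate 3. Dlk1, the protein-coding gene of the same imprinted domain, was at 4.51, 5.67 and 3.03 in WT and at 5.70, 5.50 and 5.50 in hGAS and was not called (1.16, adjusted p = 0.34). Sycn, syncollin, a secretory granule protein, fell from 13.13, 13.08 and 13.27 to 12.37, 12.35 and 12.55 (-0.74 ± 0.07, adjusted p = 0.00256, kept in 9 of 9). Mptx1, a mucosal pentraxin, fell from 14.23, 13.83 and 13.84 to 13.01, 13.37 and 13.02 (-0.83 ± 0.12, adjusted p = 0.016, kept in 8 of 9; lost without hGAS replicate 1). Casp14 and Gjb5, known from keratinised epithelium, fell by 1.04 and 0.74 (-1.04 ± 0.16, adjusted p = 0.0202, kept in 6 of 9; -0.74 ± 0.12, adjusted p = 0.0263, kept in 3 of 9). Tmem267 fell from 7.60, 7.18 and 7.0 to 6.07, 5.12 and 5.01 (-1.86 ± 0.27, adjusted p = 0.016, kept in 7 of 9; lost without WT replicate 1 or hGAS replicate 2). Adamdec1, Wdfy1, Slc39a8, Meg3, Rian, Dlk1, Sycn and Gjb5 were chosen after their values were seen. Sterol synthesis genes gave 0 calls of 18 (9 at an unadjusted p under 0.05, limma, a level that 14.2% of all genes reached). All 18 differences were negative, from -0.47 to -0.03 with a median of -0.27, where 52.8% of all genes had a positive difference. Msmo1, Fdft1 and Sqle, enzymes of that pathway also chosen after their values were seen, differed by -0.32, -0.29 and -0.29.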

How the data were processed

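Values were the deposited log2 expression values of 9 Affymetrix mouse arrays, made with GCRMA per the submitters' processing notes (version not stated; the log base was judged from the values, which run from 0.881 to 15.1, with array medians of 4.13 to 4.16). GCRMA corrects background from probe sequence and normalises arrays, so low values shrink to a floor and folds from it are uncertain. Probe sets were named from the platform annotation (34945 with 1 gene, 932 with several, 9160 with none, 64 controls left out). Each of 18193 genes was represented by the probe set with the highest mean over 9 arrays, and 11273 genes with at least 3 arrays at log2 4 or more were tested.

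limma 3.58.1 in R 4.3.3 (with data.table version 1.17.8) fitted genotype by lmFit to the 9 arrays, and eBayes took a mean-variance trend (6 residual degrees of freedom, prior 3.47). Tests were 2-sided, with Benjamini-Hochberg adjustment over all genes tested. The 9 fits mentioned beside each gene leave out 1 array each. The filter was not applied again in them. Genes that passed it through the hGAS arrays alone would fail it without 1 of these arrays, and their kept calls are to be read with this limit. The number of arrays limits the precision. On simulated data for hGAS against WT with 11273 genes, 60%, 92%, 96% and 100% of 50 genes each were recovered at log2 changes of 0.5, 1, 2 and 3, with 6 false calls, and 0 calls were made with no change. The noise was drawn once, normal and independent for each gene and array, so no array shifted many genes together. These rates do not cover such shifts on the real arrays and do not measure how reliable the real calls are.

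The comparison, the 58 gene lists (1232 entries, 1132 matched) and the naming rule were chosen with earlier results of these data known. The rule names the gastrin system, the 15 largest rises and falls among named called genes without overlap, called members of each list with up to 3 uncalled ones of largest difference, and defining markers; other genes named were chosen after their values were seen. A gene that passes the filter only through the group where it is high had to differ, so counts and medians of a list describe its tested members only. Alternatives covered filter, centring, quantile normalisation, probe set choice, eBayes settings, array weights, a replicate block, fewer arrays and single arrays left out. Figures used matplotlib 3.10.9 and pandas 2.3.3 in Python 3.11.15. Promoter sequences are from RefSeq.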

Additional observations from a re-analysis of the deposited data

How the results depend on the processing

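Of the 213 genes named by the rule, the 53 called ones kept their direction under every alternative, while 16 uncalled ones, such as Anxa2, changed sign in 28 results; other uncalled genes named were not followed. Against 131 called genes (72 higher, 59 lower), 58 (30 and 28) were called with no filter on low values and 27 (11 and 16) when only the 6 hGAS and WT arrays were fitted. Leaving out 1 array at a time gave 26 to 104 calls, 13 to 60 higher and 13 to 44 lower, with the fewest without hGAS replicate 1; GasKO arrays acted only through the estimate of spread. Leaving out WT replicate 3 and hGAS replicate 2 together, an alternative chosen after seeing the data, gave 56 (32 and 24). The other planned settings, among them quantile normalisation, median centring, averaged probe sets and array weights, gave 103 to 138 calls. Groups share replicate numbers. Deviations from the group mean correlated between hGAS and WT arrays of the same number at r = 0.254, 0.084 and 0.203 across genes. Between arrays of different numbers r ran from -0.288 to 0.103. These values do not settle whether the numbers mark pairs, and the main fit did not take them as pairs. A fit with the replicate block called 283 genes (155 and 128). Over 213 named genes and all settings, 3958 results kept their side of the threshold, 340 lost the call and 78 gained it. Signal over background limits genes near log2 4, and 3 arrays a group limit all.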
